A study of Mus musculus with 6 samples.

Results

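The 44 genes described here drive or restrain the cell division cycle. They were taken from a table of 54532 mouse genes by their symbols, and each matched 1 row. They fall into 9 genes of G1 and cell cycle entry (Ccnd1, Ccnd2, Ccnd3, Cdk4, Cdk6, Ccne1, Ccne2, Cdk2 and E2f1), 12 of DNA replication in S phase, 19 of G2 and mitosis, and 4 inhibitors (Cdkn1a, Cdkn1b, Cdkn2c and Rb1). Their messenger RNA was measured by RNA sequencing in bone marrow-derived macrophages, cells grown in culture from marrow precursors of C57BL/6 mice aged 32 to 34 weeks. The group XWT had the genotype Xbp1FL/FL, in which both alleles of Xbp1 are flanked by recombination sites. The group XKO had the genotype Xbp1ΔMf, a deletion in macrophages; the sources used here do not give the line that expresses the recombinase. Lipopolysaccharide priming and a following 48 h in conditioned medium from wild-type primary hepatocytes were common to both groups, so the comparison holds no cells without these exposures. Each group had 3 libraries. The labels do not say that they came from separate animals or cultures, so a p-value here measures only the spread between samples, some or all of which may be technical.

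As background, a cell enters the cycle when D-type cyclins with CDK4 or CDK6, and then cyclin E with CDK2, phosphorylate the RB protein and free the E2F factors that switch on the replication genes. Cyclin A and cyclin B with CDK1 then carry the cell through G2 and mitosis, and the anaphase-promoting complex with CDC20 and UBE2C ends mitosis by marking its regulators for destruction. The INK4 protein p18, product of Cdkn2c, blocks CDK4 and CDK6, while p21 and p27, products of Cdkn1a and Cdkn1b, bind cyclin and CDK complexes more widely. Macrophages of the marrow culture divide in response to the growth factor CSF-1, and lipopolysaccharide is known to slow that division.

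The libraries held 28354866 to 30891729 counts, and the 44 genes took 0.259% to 0.285% of them. Levels are given as CPM (depth-scaled counts per library, after TMM scaling) and, between genes, as the authors' FPKM, which divides by gene length. Xbp1, the targeted gene, stood at 159, 157 and 132 CPM in XWT 1 to 3 and at 76.8, 79.4 and 76.5 CPM in XKO 1 to 3 (log2 fold change -0.94, SE 0.0769, adjusted p = 1.93e-06, edgeR quasi-likelihood test), and its count covers the whole gene, including any part outside the deletion. All 12 macrophage markers were detected. Lyz2 (-1.13, adjusted p = 1.06e-06) and Mrc1 (-1.27, 5.91e-08) were lower in XKO. Of the 12, 11 had a log2 fold change below 0, beside 7135 of all 14333 tested genes, and their median was -0.19. The summed level of the 12 was 44903 to 54067 CPM in XWT and 30537 to 32575 CPM in XKO. Without Lyz2 it was 17584 to 19724 CPM in XWT and 16763 to 17660.4 CPM in XKO. Of 14 markers of fibroblasts and stroma, 12 were tested and all 12 were lower in XKO (median log2 fold change -3.35), their summed level being 746 to 864 CPM in XWT and 70.3 to 86.4 CPM in XKO, with none of the 14 at 0 in every library and Col1a1, Col1a2 and Sparc the most abundant. Neutrophil markers were higher in 7 of 9 tested (69.4 to 82.5 against 98.7 to 106 CPM summed over 13), with Mmp9, Lcn2 and Mmp8 the most abundant and Ly6g at 0 in all libraries. The part of these marker differences in the results below was not tested, and in bulk RNA fewer cells of a type and less RNA per cell cannot be told apart. All 8 hepatocyte markers were listed at 0, as were the erythroid genes Hbb-bs and Hba-a1. Lymphoid markers summed to 0.334 to 0.512 CPM in XWT and 0.457 to 0.709 CPM in XKO, erythroid ones to 0.334 to 0.960 and 0.196 to 0.650, dendritic and mast cell ones to 1.44 to 1.95 and 1.89 to 3.09, and endothelial ones, mostly Vwf, to 88.2 to 95.8 and 93.1 to 99.4. Pairs of XWT libraries differed more from each other than pairs of XKO libraries, with a chi-square per gene of 20.6 to 23.6 against 2.91 to 4.82, and XWT 3 stood at -18.2 on the first principal component of all tested genes, against -36.9 and -38.6 for the other XWT libraries and 29.2 to 33.8 for XKO.

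All 44 genes passed the filter on low counts. By edgeR's quasi-likelihood test with Benjamini-Hochberg adjustment over 14333 genes, 10 were lower in XKO at the 0.05 threshold and 0 were higher, where 7.99% of all tested genes were lower, 6.00% were higher and 14.0% were called in either direction. The 10 were the D-type cyclin genes Ccnd1 and Ccnd2, the mitotic genes Ccnb2, Cdk1, Cdc20, Plk1, Aurka and Ube2c, and the inhibitor genes Cdkn1a and Cdkn2c. No replication gene was among them. At an unadjusted p under 0.05 the counts were 16 lower and 1 higher, beside 2333 and 2076 of all 14333 tested genes. DESeq2 called 11 lower and 0 higher, beside 1215 and 996 over all genes. The median log2 fold change of the 44 was -0.13, beside 0.00 for all tested genes. XWT and XKO values were fully apart for 15 of the 44 (13 lower and 2 higher in XKO), beside 36.2% of all tested genes. Without XWT 2, XKO 1, XKO 2 or XKO 3 the 10 became 4, 5, 5 and 2. They became 6 without XWT 1 and 15 without XWT 3, with 2 higher. Over all genes the 1145 lower calls became 749, 599, 532 and 598 without XWT 2, XKO 1, XKO 2 and XKO 3. Those calls became 975 without XWT 1 and 2164 without XWT 3, with 2073 higher. Scaled by library size alone, which moved the median of all tested genes by 0.07, 6 of the 44 were lower, and over all genes 60.7% of the calls were higher in place of 42.9%.

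**Figure D1:**
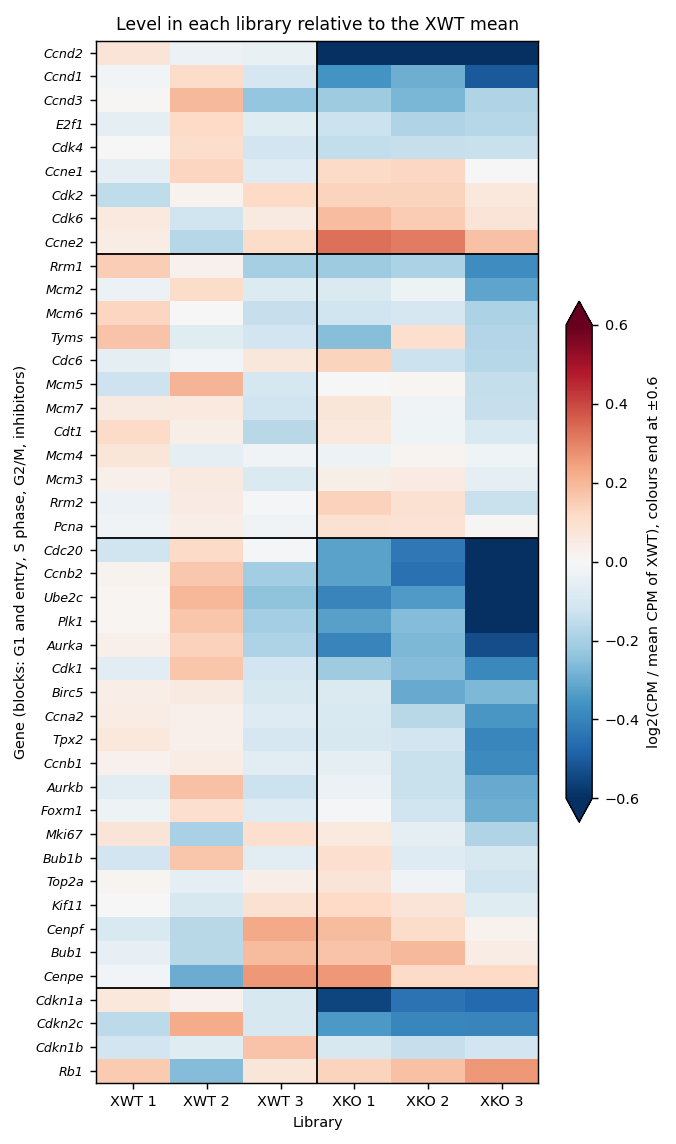
Each row is 1 of the 44 genes and each column 1 library; the colour is the log2 ratio of CPM to the mean CPM of the 3 XWT libraries, with colours ending at ±0.6. Ccnd2, Ccnd1, Cdkn1a and Cdkn2c are blue in all 3 XKO libraries, the top of the G2/M block is darkest in XKO 3, and the S-phase block is mostly pale in both groups.

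FPKM divides by the listed gene length, and the sources used here do not say how that length was set. The order of genes below rests on it. The highest member in XWT was Pcna, the sliding clamp of DNA polymerase, at 137 FPKM (mean of 3 libraries). Cdkn1a followed at 64.4, the helicase subunit gene Mcm6 at 36.9 and Cdk4 at 29.6. The same 4 led in XKO in the same order, at 142, 45.8, 33.4 and 26.8 FPKM. The lowest was Ccnd2 in both groups, at 0.619 FPKM in XWT and 0.114 in XKO, below the kinetochore gene Cenpf at 1.59 and 1.71. Markers of dividing cells were present in both groups, with Mki67, the gene of the Ki-67 antigen, at 16.1 and 15.5 FPKM and Top2a, the DNA topoisomerase of mitotic chromosomes, at 19.2 and 18.9 FPKM in XWT and XKO.

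Among the genes of G1 and entry, 2 of 9 were lower in XKO and 0 were higher (22.2% and 0%, beside 7.99% and 6.00% of all tested genes), with a median log2 fold change of -0.14. Ccnd2 (ENSMUSG00000000184, chromosome 6 from 127125162 to 127152193, minus strand) encodes cyclin D2 and showed the largest fold of the 44. It stood at 6.16, 5.69 and 5.67 CPM in XWT 1 to 3 and at 1.22, 0.943 and 1.08 CPM in XKO 1 to 3. Every XKO library was far below every XWT library, and the level was 5.38-fold lower in XKO (log2 fold change -2.43, SE 0.182, adjusted p = 8.27e-07). Ccnd1 (ENSMUSG00000070348, chromosome 7 from 144929931 to 144939925, minus strand), the gene of cyclin D1 and the D-type cyclin with the highest FPKM here, stood at 102, 111 and 95.6 CPM in XWT 1 to 3 and at 80.0, 83.8 and 72.5 CPM in XKO 1 to 3. The groups did not overlap, and Ccnd1 was 1.30-fold lower in XKO (log2 fold change -0.38, SE 0.0765, adjusted p = 0.00499), a call that ended without XKO 3 (adjusted p = 0.0521). The third D-type cyclin gene, Ccnd3, stood at 65.6, 74.6 and 55.6 CPM in XWT 1 to 3 and at 56.3, 54.0 and 57.6 CPM in XKO 1 to 3. Its groups overlapped and it was not called (log2 fold change -0.22, SE 0.0926, adjusted p = 0.125). The stromal markers differed between the same libraries, 746 to 864 against 70.3 to 86.4 CPM summed, with single log2 fold changes of -4.20 to -2.06, a range that holds the -2.43 of Ccnd2. Their part in the fall of Ccnd1 and Ccnd2 was not tested.

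The kinases that these cyclins bind did not pass the test. Cdk4 stood at 96.5, 104 and 89.0 CPM in XWT 1 to 3 and at 87.1, 87.7 and 87.8 CPM in XKO 1 to 3, and although each XKO value lay below each XWT value the difference was small (log2 fold change -0.14, SE 0.0692, adjusted p = 0.19). Cdk6 lay the other way, at 90.9 ± 6.26 CPM in XWT and 100.1 ± 3.79 CPM in XKO (SD, n = 3 each), again without overlap and without a call (log2 fold change 0.14, SE 0.0696, adjusted p = 0.191). The cyclin E genes, which act at the start of S phase, were not called either: Ccne1 had a log2 fold change of 0.08 (95% interval -0.14 to 0.30) and Ccne2 of 0.27 (0.05 to 0.50, adjusted p = 0.0949). Ccne2 stood at 13.0, 11.1 and 13.6 CPM in XWT 1 to 3 and at 15.8, 15.6 and 14.2 CPM in XKO 1 to 3, so that all 3 XKO values were the higher ones, and it was called higher without XWT 3 (adjusted p = 0.0403) but had a log2 fold change of -0.03 after trends with gene length and GC content were removed. Their partner Cdk2 had a log2 fold change of 0.11 (95% interval -0.06 to 0.28). E2f1, the transcription factor gene that RB restrains and that activates replication genes, stood at 53.7, 60.4 and 52.9 CPM in XWT 1 to 3 and at 50.9, 49.1 and 49.4 CPM in XKO 1 to 3. Its XKO values were all below its XWT values, but it did not pass the test (log2 fold change -0.16, SE 0.0723, adjusted p = 0.152).

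**Figure D2:**
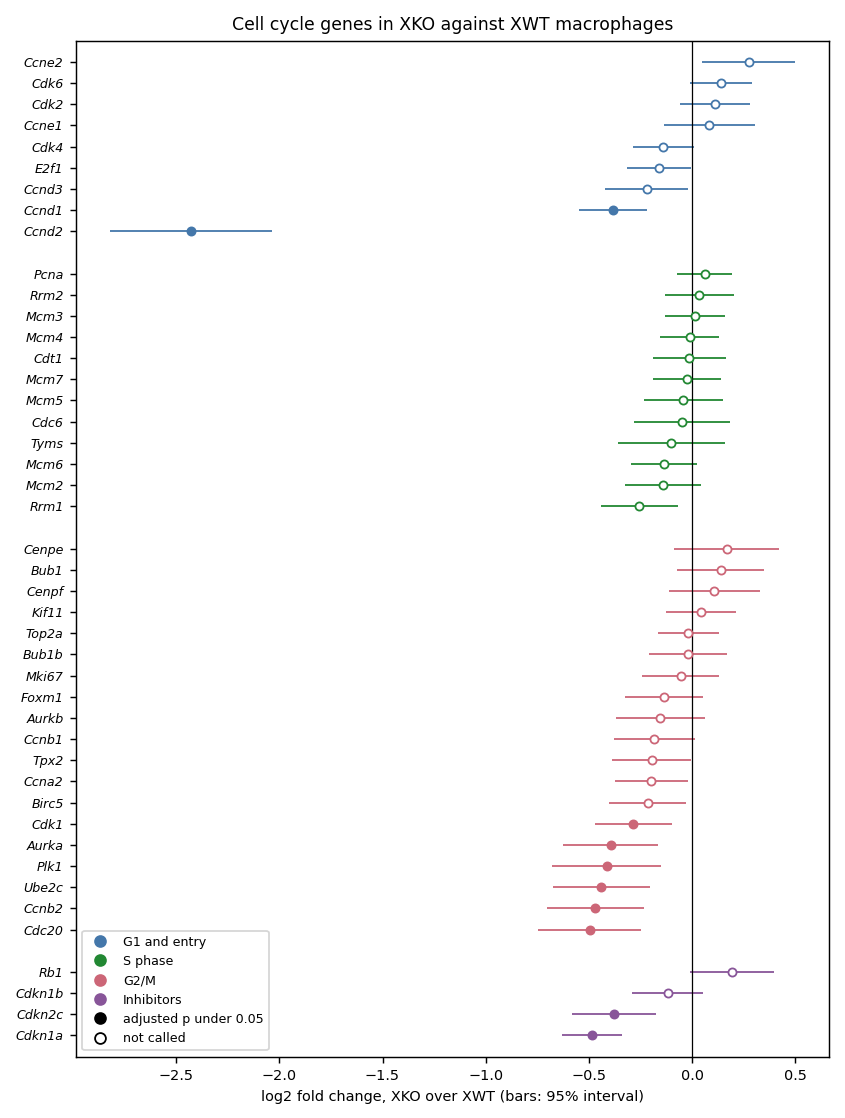
Log2 fold change of XKO over XWT for each of the 44 genes (points, with 95% intervals as bars), by role; filled points have an adjusted p under 0.05. All 10 filled points lie left of 0, none is in the S-phase block, and Ccnd2 stands apart at -2.43.

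None of the 12 replication genes of S phase passed the test. With edgeR 0 were higher and 0 lower, beside 6.00% and 7.99% of all tested genes. In a list of 12 genes, 0 calls is close to these shares. At an unadjusted p under 0.05, 1 was lower (Rrm1) and 0 higher, beside 2333 and 2076 of all 14333 tested genes. DESeq2 called 1 lower, beside 1215 over all genes. Their log2 fold changes ran from -0.26 to 0.06 with a median of -0.03, and their 95% intervals lay between -0.44 and 0.20. The values of the groups overlapped for all 12, where 36.2% of all tested genes had groups fully apart. Their summed level was 1060.0 to 1160.1 CPM in XWT and 1033 to 1123 CPM in XKO.

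The 6 subunit genes of the MCM helicase, which unwinds DNA at the fork, were among them. Mcm3 stood at 78.9 ± 4.09 CPM in XWT and 79.6 ± 3.02 CPM in XKO (SD, n = 3 each), with a log2 fold change of 0.01 (95% interval -0.13 to 0.16). Mcm4 and Mcm7 had log2 fold changes of -0.01 and -0.03, and Mcm5 of -0.04. These signs depend on the scaling: library size alone turned those of Mcm4, Mcm5, Mcm7, Cdc6 and Cdt1, upper-quartile scaling that of Mcm3, and removal of length and GC trends those of Mcm5, Mcm7, Cdt1, Pcna and Rrm2. The lowest of the 6 were Mcm2 at -0.14 (-0.32 to 0.04) and Mcm6 at -0.14 (-0.30 to 0.02). By FPKM in XWT the subunits were unequal, from 7.72 for Mcm2 to 36.9 for Mcm6, whose listed lengths are 6956 and 4666 bases. In CPM these 2 genes had means of 53.8 and 172 in XWT. The genes that load the helicase at origins were likewise not called, Cdc6 with a log2 fold change of -0.05 (-0.28 to 0.18) and Cdt1 of -0.01 (-0.19 to 0.16).

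Pcna stood at 324, 338 and 324 CPM in XWT 1 to 3 and at 349.9, 349 and 330.3 CPM in XKO 1 to 3. XKO 3 lay between XWT values, so the groups overlapped, and the log2 fold change was 0.06 (95% interval -0.07 to 0.20). Ribonucleotide reductase, which makes deoxynucleotides, has a large subunit encoded by Rrm1 and a small one encoded by Rrm2. Rrm1 stood at 147, 136 and 116 CPM in XWT 1 to 3 and at 115, 117 and 103 CPM in XKO 1 to 3, so that XKO 2 lay just above XWT 3, and it did not pass the test (log2 fold change -0.26, SE 0.0864, adjusted p = 0.0648). It was called lower with DESeq2, no filter, quality weights per library or a replicate block, and without XWT 3. Rrm2 had a log2 fold change of 0.04 (-0.13 to 0.20), and Tyms, the thymidylate synthase gene, of -0.10 (-0.36 to 0.16).

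Of the 19 genes of G2 and mitosis, 6 were lower in XKO and 0 were higher (31.6% lower, beside 7.99% of all tested genes), with a median log2 fold change of -0.18. All 6 act in mitosis itself, and so do uncalled members such as Ccnb1, Bub1b, Aurkb and Kif11. Of the 6, Cdk1 and Ccnb2 encode the mitotic kinase and a cyclin partner, and Plk1 and Aurka encode kinases that build the spindle. Cdc20 and Ube2c belong to the machinery that ends mitosis. In each of the 6 the highest of all values was XWT 2 and the lowest XKO 3, and the groups did not overlap. The stromal markers were lower in all 3 XKO libraries, at 86.4, 70.3 and 82.3 CPM summed against 746 to 864 CPM in XWT. Their part in these falls was not tested. Whether the G2/M genes differ from the S-phase genes in their response was not tested.

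The promoters of the genes that fell are shown because G2/M genes are known to be read through a pair of elements, the CCAAT box and the cell cycle homology region (CHR), while replication genes are read through E2F sites. The 4 falling genes shown are followed by Top2a, a G2/M gene that was not called, and by Mcm6, a replication gene. Each stretch runs 5′ to 3′ along the gene, from 150 bases before to 20 after the start that RefSeq lists (GRCm38.p6). Capitals mark the words found on either strand: TTTGAA and TTCGAA for the CHR, CCAAT for the CCAAT box (ATTGG on the other strand), and TTCCCGC and TTGGCGC for E2F.
Ccnb2: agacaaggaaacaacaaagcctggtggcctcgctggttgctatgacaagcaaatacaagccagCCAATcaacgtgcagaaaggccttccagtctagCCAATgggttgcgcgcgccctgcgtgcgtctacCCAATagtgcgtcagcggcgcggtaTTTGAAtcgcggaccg
Cdc20: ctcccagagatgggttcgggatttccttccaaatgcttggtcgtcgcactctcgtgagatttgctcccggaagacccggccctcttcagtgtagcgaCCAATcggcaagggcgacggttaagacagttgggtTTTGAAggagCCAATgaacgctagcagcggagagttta
Ube2c: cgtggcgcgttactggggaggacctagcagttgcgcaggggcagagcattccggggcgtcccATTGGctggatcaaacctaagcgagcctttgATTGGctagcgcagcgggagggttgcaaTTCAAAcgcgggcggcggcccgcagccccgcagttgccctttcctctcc
Cdk1: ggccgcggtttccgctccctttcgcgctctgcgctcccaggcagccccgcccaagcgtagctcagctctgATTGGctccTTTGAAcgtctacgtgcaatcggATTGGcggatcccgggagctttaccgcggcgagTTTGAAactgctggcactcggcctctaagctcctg
Top2a: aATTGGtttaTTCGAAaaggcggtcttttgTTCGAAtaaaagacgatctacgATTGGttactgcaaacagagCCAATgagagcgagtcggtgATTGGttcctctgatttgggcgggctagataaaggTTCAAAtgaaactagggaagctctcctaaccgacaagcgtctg
Mcm6: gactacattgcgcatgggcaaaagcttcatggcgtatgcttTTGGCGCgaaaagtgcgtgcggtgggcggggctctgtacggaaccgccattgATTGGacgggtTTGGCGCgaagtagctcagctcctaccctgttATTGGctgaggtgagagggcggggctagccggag

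These stretches are chr9:70421535-70421704, minus strand for Ccnb2; chr4:118437324-118437493, minus strand for Cdc20; chr2:164769779-164769948, plus strand for Ube2c; chr10:69352893-69353062, minus strand for Cdk1. Top2a is at chr11:99024170-99024339, minus strand, and Mcm6 at chr1:128359686-128359855, minus strand. In Cdc20 the CHR word begins at base -18 from the start, between CCAAT boxes at -53 and -8. In Ccnb2 it begins at base 5 counted from 1 at the start, after 3 CCAAT boxes at -87, -54 and -21. In Ube2c it lies on the other strand at -29, and in Cdk1 there are words at -71 and -15. Mcm6 has no CHR word in the stretch and has E2F words at -109 and -46.

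RefSeq windows of 300 bases, 250 before to 50 after the start, were found for 35 of the 44 genes (39 windows). Of 15 G2/M windows, 12 held a CHR word and 14 a CCAAT box, beside 19.2% and 37.4% of all 32851 windows, and 12 held both, beside 7.52%. Of 12 S-phase windows, 8 held an E2F word, beside 6.81% of all windows and 3 of the 15 G2/M windows. A CCAAT box was in 9 of these 12 S-phase windows and a CHR word in 2, beside the same 37.4% and 19.2%. The 6 genes that fell all held both CHR and CCAAT words, and so did 6 of the 9 G2/M genes that were not called, among them Top2a, Mki67 and Kif11. None of the 5 windows of the inhibitor genes or the 7 of the G1 genes held a CHR word. CCAAT on the other strand can share bases with the E2F word TTGGCGC. A match of these letters is a description and shows no binding.

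Cdc20 (ENSMUSG00000006398, chromosome 4 from 118432901 to 118437352, minus strand), the activator of the anaphase-promoting complex, had the lowest log2 fold change of the G2/M genes. It stood at 20.4, 24.0 and 22.1 CPM in XWT 1 to 3 and at 17.8, 16.5 and 12.9 CPM in XKO 1 to 3, all XKO values lying below all XWT values, and was 1.41-fold lower (log2 fold change -0.50, SE 0.116, adjusted p = 0.013). Ube2c (ENSMUSG00000001403, chromosome 2 from 164769898 to 164778822, plus strand) encodes the ubiquitin-conjugating enzyme of the same complex. It stood at 37.5, 42.7 and 31.5 CPM in XWT 1 to 3 and at 28.3, 29.5 and 24.6 CPM in XKO 1 to 3 (log2 fold change -0.44, SE 0.108, adjusted p = 0.0174). Ccnb2 (ENSMUSG00000032218, chromosome 9 from 70407692 to 70421547, minus strand), cyclin B2, stood at 29.1, 32.2 and 24.9 CPM in XWT 1 to 3 and at 23.0, 21.1 and 18.2 CPM in XKO 1 to 3 (log2 fold change -0.47, SE 0.109, adjusted p = 0.0127), with XWT 3 the lowest of its group and XKO 3 the lowest of all. A pseudogene of Ccnb2 listed apart had 27 to 58 counts per library beside at least 556 for Ccnb2, and how reads that match both copies were counted is not known.

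The mitotic kinase genes had the same highest and lowest libraries. Plk1 (ENSMUSG00000030867, chromosome 7 from 122159439 to 122169873, plus strand), polo-like kinase 1, stood at 22.9, 25.5 and 19.7 CPM in XWT 1 to 3 and at 18.1, 18.9 and 14.0 CPM in XKO 1 to 3 (log2 fold change -0.41, SE 0.123, adjusted p = 0.0398), where XWT 3 exceeded XKO 2 by a small margin. Aurka (ENSMUSG00000027496, chromosome 2 from 172356190 to 172370535, minus strand), the centrosome kinase Aurora A, stood at 19.4, 21.0 and 16.8 CPM in XWT 1 to 3 and at 14.5, 15.8 and 13.2 CPM in XKO 1 to 3 (log2 fold change -0.39, SE 0.107, adjusted p = 0.0274). Cdk1 (ENSMUSG00000019942, chromosome 10 from 69335146 to 69352938, minus strand), the kinase that triggers mitosis, had the smallest change of the 6, at 41.8, 49.1 and 40.4 CPM in XWT 1 to 3 and at 37.7, 36.5 and 33.5 CPM in XKO 1 to 3 (log2 fold change -0.29, SE 0.0868, adjusted p = 0.0433). The log2 fold changes of the 6 thus lay between -0.50 and -0.29, with SEs of 0.0868 to 0.123. They were below 0 without each library in turn, but 0 of the 19 genes were called without XWT 2 (-0.44 to -0.20 for the 6) or without XKO 3 (-0.38 to -0.24), and 2 without XWT 1, XKO 1 or XKO 2. Over all genes the 1145 lower calls became 532 to 975 without XWT 1, XWT 2 or an XKO library. With library size alone 3 of the 19 were called (749 lower over all genes), and with length and GC trends removed 4 (1016). In that last setting Cdk1 had a log2 fold change of -0.28 (adjusted p = 0.0504), close to its value above, and Plk1 of -0.32 (adjusted p = 0.0730).

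**Figure D3:**
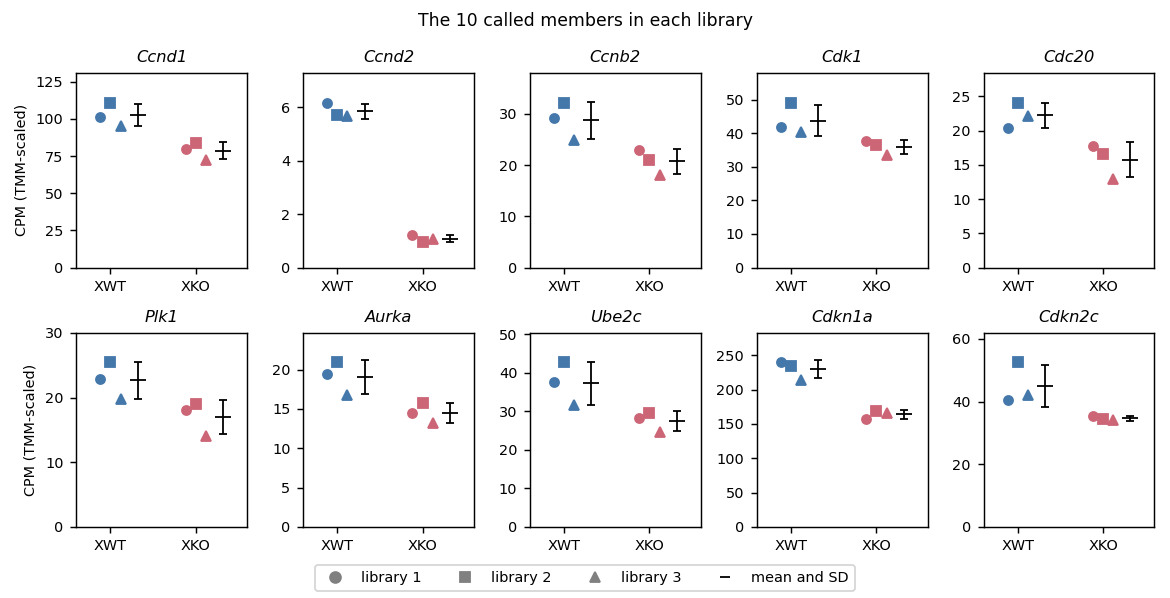
CPM (linear axis from 0) of the 10 genes with an adjusted p under 0.05 in each of the 3 XWT and 3 XKO libraries, with the group mean and SD. In all 10 panels the 3 XKO points lie below the 3 XWT points, and in Ccnb2, Cdk1, Cdc20, Plk1, Aurka and Ube2c the lowest point is XKO 3.

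The other 13 G2/M genes were not called, with log2 fold changes from -0.22 to 0.17. The most used marker of dividing cells, Mki67, stood at 171, 142 and 174 CPM in XWT 1 to 3 and at 169, 156 and 144 CPM in XKO 1 to 3. The groups overlapped fully, and the log2 fold change was -0.05 (95% interval -0.24 to 0.13). Top2a gave -0.02 (-0.17 to 0.13), at 173 ± 5.64 CPM in XWT and 171 ± 11.6 CPM in XKO (SD, n = 3 each). Genes of the kinetochore and its checkpoint, which hold mitosis until all chromosomes are attached, had log2 fold changes on both sides of 0: Bub1 at 0.14, Bub1b at -0.02, Cenpe at 0.17 and Cenpf at 0.11, none of them called. The spindle motor gene Kif11 gave 0.04. With length and GC trends removed the signs of Bub1, Bub1b, Kif11 and Mki67 turned, and with library size alone those of Bub1b, Mki67 and Top2a did. Below 0 and not called were the cyclin genes Ccna2 (-0.20, 95% interval -0.37 to -0.02) and Ccnb1 (-0.18, -0.38 to 0.01), the chromosomal passenger genes Birc5 (-0.22) and Aurkb (-0.15), the Aurora A activator gene Tpx2 (-0.20), and Foxm1 (-0.14), the transcription factor that drives many G2/M genes. Ccna2 was the 1 uncalled G2/M gene whose groups did not overlap, at 44.1 ± 2.05 CPM in XWT and 38.5 ± 3.51 CPM in XKO (SD, n = 3 each).

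Summed over the 19 genes, the level was 889, 879 and 884 CPM in XWT 1 to 3 and 877, 827 and 750.5 CPM in XKO 1 to 3. XKO 1 was thus close to the XWT libraries and XKO 3 was the lowest. XKO 3 had the lowest of the 6 values for 12 of the 19 G2/M genes and 7 of the 12 S-phase genes, and for 21 of all 44 genes. XWT 2 had the highest value for 11 of the 19 G2/M genes and 20 of the 44. The sum of the S-phase genes was also lowest in XKO 3, at 1033 CPM, and next lowest in XWT 3, at 1060.0 CPM.

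Within the G2/M group the change went with gene length as the table lists it. The 6 genes that fell had a median length of 2365 bases (1531 to 4934), and the 13 others of 4677 (2946 to 15433). Across the 19 genes, which share the same 6 libraries, Spearman's rho of length and log2 fold change was 0.80, and 0.83 after the trends with length and GC over all genes were removed. Across the 12 S-phase genes it had the opposite sign, -0.94, and -0.61 with the trends removed. Genes are not independent replicates, so these values describe the lists and carry no p. The part of length in the calls was not tested beyond the removal of the trends.

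**Figure D4:**
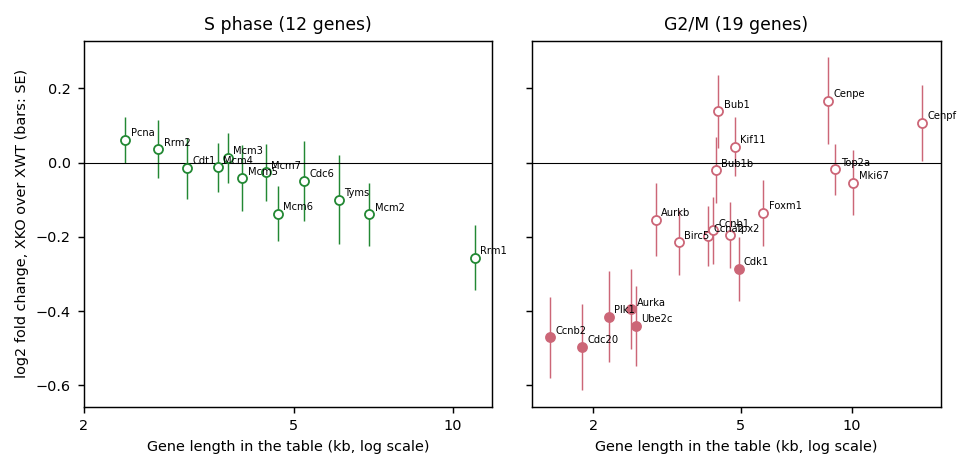
Gene length in kb (log axis) against the log2 fold change of XKO over XWT with its SE, for the 12 S-phase genes (left) and the 19 G2/M genes (right); filled points have an adjusted p under 0.05. The S-phase points fall with length and the G2/M points rise, with Ccnb2, Cdc20, Plk1, Aurka and Ube2c among the shortest genes.

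Among the 4 inhibitors, 2 were lower in XKO and 0 were higher, beside 7.99% and 6.00% of all tested genes. Cdkn1a (ENSMUSG00000023067, chromosome 17 from 29090976 to 29100727, plus strand), the gene of the CDK inhibitor p21 and a known target of p53, stood at 239.8, 234 and 215 CPM in XWT 1 to 3 and at 157, 169 and 166 CPM in XKO 1 to 3. All XKO values lay well below all XWT values, and the gene was 1.40-fold lower (log2 fold change -0.49, SE 0.0670, adjusted p = 0.000317). It was called without each of the 6 libraries and in each of the 11 other settings, with log2 fold changes of -0.53 to -0.40. Of the 10 called genes this also held for Ccnd2, in the 10 settings in which its level let it be tested. Cdkn2c (ENSMUSG00000028551, chromosome 4 from 109660876 to 109667189, minus strand), the gene of p18, stood at 40.4, 52.6 and 42.1 CPM in XWT 1 to 3 and at 35.5, 34.3 and 34.2 CPM in XKO 1 to 3. Its groups did not overlap (log2 fold change -0.38, SE 0.0942, adjusted p = 0.0185), and the call ended without XKO 1, XKO 2 or XKO 3 (adjusted p = 0.0599, 0.0874 and 0.0881) and with library size alone (0.0564). The XKO libraries were close to each other for both genes.

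Cdkn1b, the gene of p27, stood at 54.1, 55.7 and 65.9 CPM in XWT 1 to 3 and at 54.7, 53.1 and 54.1 CPM in XKO 1 to 3. Its groups overlapped, and it was not called (log2 fold change -0.12, SE 0.0800, adjusted p = 0.344), although it was with length and GC trends removed (-0.22, adjusted p = 0.0453). Rb1, the gene of the RB protein itself, stood at 68.1, 51.0 and 64.2 CPM in XWT 1 to 3 and at 67.1, 68.9 and 73.2 CPM in XKO 1 to 3. XWT 2 was the low value and XKO 3 the high one, and the difference did not pass the test (log2 fold change 0.19, SE 0.0943, adjusted p = 0.189). Summed over the 4 inhibitors, of which Cdkn1a made up most, the level was 387 to 402 CPM in XWT and 314 to 327 CPM in XKO. The D-type cyclin genes Ccnd1 and Ccnd2 and the inhibitor genes Cdkn1a and Cdkn2c were thus lower in all 3 XKO libraries.

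Other genes of the same pathways were read from the same test. Of 62 other replication genes, 3 were higher and 1 lower (median log2 fold change 0.01; 4.84% higher and 1.61% lower, beside 6.00% and 7.99% of all tested genes). The 3 that rose were the chromatin remodeller gene Hells (0.38, adjusted p = 0.0236), the origin recognition gene Orc4 (0.36, 0.0306) and the helicase gene Blm (0.37, 0.0378). The calls of Hells and Orc4 ended with length and GC trends removed, and those of all 3 ended without XKO 1, XKO 2, XKO 3 or XWT 2.

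Of 76 other G2/M genes, 3 were lower and 0 higher, 3.95% against 7.99% of all tested genes, while 56 of the 76 had a log2 fold change below 0 and the median was -0.14. At an unadjusted p under 0.05, 21 of the 76 were lower and 5 higher, beside 2333 and 2076 of all 14333 tested genes. Racgap1, which acts in cytokinesis, stood at 53.4, 55.1 and 49.2 CPM in XWT 1 to 3 and at 42.4, 40.7 and 36.2 CPM in XKO 1 to 3 (log2 fold change -0.40, SE 0.0796, adjusted p = 0.0046). The centrosome kinase gene Nek2 (-0.36, adjusted p = 0.0463) and the spindle gene Psrc1 (-0.42, 0.0466) were the others, both near the threshold. The 3 became 7 with upper-quartile scaling, 10 with no filter or with length and GC trends removed, and 12 without XWT 3. They became 2 without XKO 1. The count was 1 with library size alone, a mean of at least 5 CPM or without XWT 2, XKO 2 or XKO 3. Over all genes the 1145 lower calls became 1291, 1545 and 1016 with upper-quartile scaling, no filter and trends removed. Those calls became 2164 without XWT 3 and 532 to 749 without XWT 2 or an XKO library. Library size alone gave 749, and a mean of at least 5 CPM gave 687. The share in the 19 genes above was 31.6%; the difference between the lists was not tested.

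Of 34 other genes of the RB and E2F switch and of CDK inhibition, 1 was higher and 1 lower (2.94% each, beside 6.00% and 7.99% of all tested genes), so the list as a whole gave no larger share of calls than all genes did. Cdkn1c, the gene of the CDK inhibitor p57, rose from 5.74 ± 0.722 to 8.13 ± 1.08 CPM (SD, n = 3 each; log2 fold change 0.51, SE 0.143, adjusted p = 0.0328). Fzr1, which encodes the CDH1 activator of the anaphase-promoting complex, fell (log2 fold change -0.32, SE 0.0764, adjusted p = 0.0159). Both calls ended without XKO 1, XKO 2 or XKO 3, that of Cdkn1c also without XWT 2 or XWT 3 and that of Fzr1 with library size alone or with length and GC trends removed.

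Cdkn1a is a known target of p53, and 28 other tested genes were listed for that pathway, the gene of p53 itself, which was not called, and targets of it. Of the 28, 9 fell and 2 rose (32.1% lower and 7.14% higher, beside 7.99% and 6.00% of all tested genes). Sesn1, a sestrin gene, stood at 310.2, 318 and 297 CPM in XWT 1 to 3 and at 226, 223 and 241 CPM in XKO 1 to 3 (log2 fold change -0.42, SE 0.0642, adjusted p = 0.000677). Zmat3, an RNA-binding protein gene, stood at 45.7, 48.4 and 46.4 CPM in XWT 1 to 3 and at 33.5, 34.1 and 34.0 CPM in XKO 1 to 3 (log2 fold change -0.47, SE 0.0683, adjusted p = 0.000499), and Phlda3, an inhibitor of AKT signalling, at 14.7, 18.3 and 12.5 CPM in XWT 1 to 3 and at 7.41, 8.23 and 6.89 CPM in XKO 1 to 3 (log2 fold change -1.01, SE 0.140, adjusted p = 0.000313). In all 3 genes the groups were well apart, and each was called without every library in turn and in the 11 other settings. The 2 that rose were the polo-like kinase genes Plk3 (0.74, adjusted p = 0.000381) and Plk2 (0.36, 0.00288), which also held in all those settings. The 9 became 6 with library size alone or without XWT 2, and 5 without XKO 2. They became 4 without XKO 1 or XKO 3 or at a threshold of 0.01. Over all genes the 1145 lower calls became 532 to 749 in these settings. The stromal markers, lower in all 12 tested, differed between the same libraries, and their part in the fall of these genes and of Cdkn1a was not tested.

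Of 11 tested genes of macrophage growth control, 4 were higher (36.4%, beside 6.00% of all tested genes). None was lower, beside 7.99%, and the count was 0 in the edgeR test and in DESeq2 (1 lower at an unadjusted p under 0.05). Csf1, the gene of the growth factor CSF-1, stood at 36.0, 26.8 and 34.5 CPM in XWT 1 to 3 and at 80.9, 83.0 and 79.6 CPM in XKO 1 to 3 (log2 fold change 1.32, SE 0.0956, adjusted p = 5.92e-07). Every XKO library was far above the highest XWT library. The receptor genes for GM-CSF, Csf2ra (0.32, adjusted p = 0.0245) and Csf2rb (0.23, 0.0318), were the next by p, and the growth regulator gene Myc was the fourth (0.27, 0.0433). The call of Csf1 held in all settings and without every library, those of Csf2ra and Csf2rb ended without XWT 2, XKO 1, XKO 2 or XKO 3, and that of Csf2ra also without XWT 1. Leaving out XWT 2, or any 1 of the XKO libraries, brought the 4 down to 1, and a replicate block to 2. Removal of length and GC trends raised them to 6. Over all genes the 860 higher calls became 460 without XWT 2 and 274 to 316 without an XKO library. Those calls became 1068 with the replicate block and 1424 with the trends removed.

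**Figure D5:**
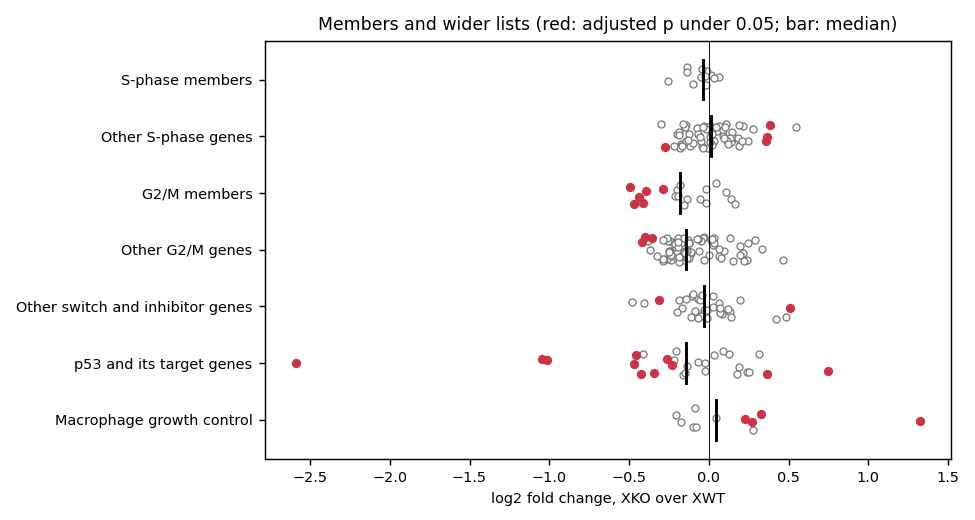
Log2 fold change of XKO over XWT of each tested gene (points; red where the adjusted p is under 0.05) in the S-phase and G2/M groups and in 5 wider lists, with the list median as a bar; vertical scatter within a list has no meaning. The G2/M members hold 6 red points left of 0 among 19, the other G2/M genes 3 among 76, and the list of p53 and its targets 9 left and 2 right of 0 among 28.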

How the data were processed

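RNA of 6 macrophage samples was extracted with Trizol and made into libraries with the NEBNext Ultra kit, per the labels' protocols. Bowtie 0.12.2, mm8 and mm10 stand in the submitters' processing notes without a role. The sources used here give no counter, annotation or strand setting, so overlapping and antisense genes cannot be told apart. The deposited counts are whole reads per gene, per the file headers. The deposited FPKM were scaled by the authors by gene length and library, and are used here only to set levels of genes side by side. The coordinates of all 44 genes equal those of GENCODE M21 (GRCm38). Genes were filtered with filterByExpr, scaled by TMM and tested with edgeR 4.0.16 (robust quasi-likelihood fit; R 4.3.3) over 14333 genes, at an adjusted p under 0.05. SEs are the log2 fold change over the root of F, with 4 residual degrees of freedom before moderation. The biological coefficient of variation was 0.0865. Alternatives included DESeq2 1.42.0, limma 3.58.1 and leaving out each library, and GC content was known for 99.9% of tested genes. The scripts were tested on simulated counts with 50 genes changed at each fold. Of 1.25-fold changes 26% were called, of 1.5-fold 60%, of 2-fold 90% and of 4-fold 86%, with 10 false calls. A small change is thus often not called. The changed genes were drawn from all tested genes, and each gene had the same spread in both groups. The rates are therefore not those of the 44 genes. The members and lists were chosen with earlier results of these data known. Every member is accounted for. Values in every library are given for called members, E2f1 and the inhibitors, and for others by choice after their values were seen. From each wider list up to 3 called genes a direction with the smallest p are named, and from marker lists the most abundant; Myc, Mrc1 and Vwf were chosen after their values were seen. Promoters came from RefSeq (GRCm38.p6). 1 listed symbol had no row. The values of some genes of these lists are not reported here.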

Additional observations from a re-analysis of the deposited data

How the results depend on the processing

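All 10 called members kept a log2 fold change below 0 under every alternative that tested them. Xbp1 and the called genes named from the wider lists, Myc aside, kept their direction too. Myc and the marker genes were not followed singly through the alternatives. With library size alone, 749 of all genes were lower, and of the members 6, among them 3 G2/M genes and 1 inhibitor. At a threshold of 0.01, 262 genes were higher and 544 lower, and of the members 3 were lower, with 0 in G2/M and 1 inhibitor. With a mean of at least 5 CPM, 687 genes were lower and 1 G1 member remained (Ccnd2 was not tested), and the G1 median moved from -0.14 to -0.014. With length and GC trends removed, 1424 genes were higher, and the G1 median was -0.026. 1 S-phase gene was lower, against 0, with no filter, DESeq2, quality weights or the replicate block. Leaving out 1 library at a time, which also lowers the residual degrees of freedom, gave 274 to 2073 higher and 532 to 2164 lower genes, 0 to 2 higher and 2 to 15 lower members, 0 to 1 higher and 1 to 4 lower G1 members, 0 to 2 lower S-phase members, 0 to 1 higher and 0 to 7 lower G2/M members and 1 to 2 lower inhibitors. The highest of these counts of calls came without XWT 3, and the cause was not tested. The labels do not say whether libraries of the same replicate number share an animal, culture or day. Same-numbered libraries had correlations of -0.05 to -0.04 of their deviations from the group means. These values cannot decide it, because the deviations of 3 libraries sum to 0 in each group. A replicate block gave 11 lower members and 0 higher, and over all genes 1068 higher and 1127 lower. The precision is limited by 3 libraries a group, and for the genes of lowest level, such as Ccnd2, also by counting error.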
